A study of Mus musculus with 3 samples.

Results

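Voltage-gated sodium and calcium channels open when the membrane is depolarised, and they give neurons their action potentials, their calcium entry at synapses and their calcium signals to the nucleus. Each channel is built around 1 pore-forming subunit (alpha for sodium, alpha1 for calcium). Many also carry auxiliary subunits that set their traffic to the membrane, their gating and their contacts. The pore-forming genes are the Scn genes that end in a and the Cacna1 genes. The genes counted as auxiliary, by name, are the Scn genes that end in b and the Cacna2d (alpha2delta), Cacnb (beta) and Cacng (gamma) genes. The newborn olfactory bulb takes up young interneurons that are still acquiring these currents.

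The rows described here are those of the deposited list of Sp9 peaks whose gene name has the form of a voltage-gated sodium or calcium channel gene. The rule reads the gene name and uses no score. There were 53 such peaks among 19979 in all, under 28 gene names. RefSeq (assembly GRCm38.p6) holds 40 coding genes with names of this form, 20 pore-forming and 20 auxiliary, so 12 channel genes were named by no peak. Linked means here that the deposited row of a peak carries the name of a gene. Neither a distance nor a promoter, exon or intron is listed, and where a linked peak lies within or around its gene is unknown.

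Chromatin came from olfactory bulbs of CD1 mice, a wild-type outbred stock, at postnatal day 0 to 2. There were 2 libraries immunoprecipitated with a homemade antibody against Sp9, a zinc finger transcription factor of bulb interneurons, and 1 input library made without antibody. The question of the study was what Sp8 and Sp9 do as such interneurons develop. Bulb chromatin mixes neurons, glia and vessel cells, and no label says whether the 2 immunoprecipitations came from separate animals. The list held peaks shared between the immunoprecipitations with 1 score each, from 80.01 to 3139.09 with a median of 210.06. It holds no value for the input, no counts and no value per library. The depth is therefore unknown, no value below has a replicate error, and no difference below was tested.

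Channel genes were linked to a peak more often than coding genes at large, and among them calcium channel genes had the higher share. Of the 40 channel genes, 28 (70.0%) had at least 1 linked peak, against 55.4% of all 21900 coding genes. Peaks at or above the list median, called above-median here, were linked to 18 (45.0%), against 35.4% of coding genes. Peaks in the upper quartile of scores (353.56 or more) were linked to 13 (32.5%), against 19.2%. Calcium channel genes had 21 of 26 linked (80.8%) and sodium channel genes 7 of 14 (50%), a share near that of all coding genes. Genes are not replicates and many of these sit in clusters of related genes, so the shares describe this list of peaks.

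Auxiliary genes had the higher share of linked genes, while linked pore-forming genes had more peaks each. Of 20 pore-forming genes, 12 (60.0%) were linked, against 16 of 20 auxiliary genes (80%) and 55.4% of all coding genes. Above-median peaks were linked to 8 pore-forming genes (40.0%) and to 10 auxiliary genes (50%), against 35.4% of coding genes. Both shares of pore-forming genes thus lay near those of all coding genes. The gap was seen in sodium channels, where 4 of 10 pore-forming genes (40.0%) were linked, against 3 of 4 auxiliary genes (75.0%). Among calcium channels the shares were 8 of 10 pore-forming genes (80%) and 13 of 16 auxiliary genes (81.2%). For above-median peaks the order turned in calcium channels, with 6 of 10 pore-forming genes (60.0%) and 8 of 16 auxiliary genes (50%). For the upper quartile it was 50% and 37.5%, against 19.2% of all coding genes. Pore-forming genes had 28 peaks, or 1.4 per gene, and auxiliary genes 25, or 1.25 per gene. Of the linked genes, 8 of 12 pore-forming ones (66.7%) and 7 of 16 auxiliary ones (43.8%) had more than 1 peak. Among all linked coding genes the share was 27.9%. Over all their peaks the median score was 142.71 for pore-forming genes and 173.77 for auxiliary genes. For the highest peak of each linked gene the order turned, with medians of 336.37 for pore-forming genes and 305.14 for auxiliary genes.

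**Figure D1:**
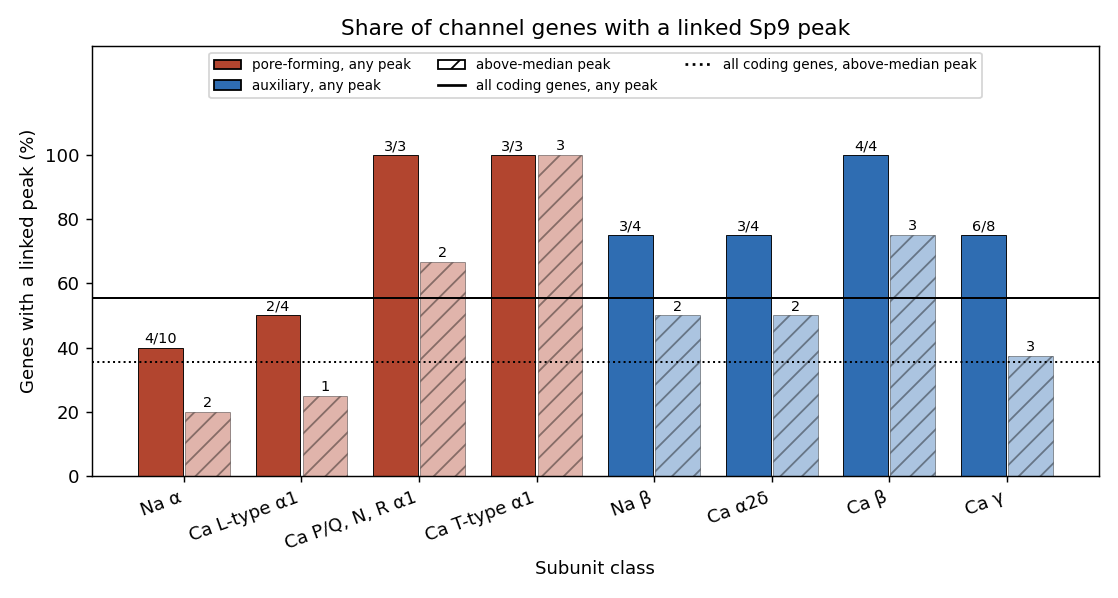
Share of genes with a linked Sp9 peak in each subunit class (percent), for peaks of any score (solid bars, with linked genes over genes in the class) and for the above-median ones (hatched bars, with their number). The black lines mark all coding genes, at 55.4% (solid, any score) and 35.4% (dotted, above-median); sodium alpha and L-type calcium alpha1 genes lie below both lines.

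Sp9 belongs to a family whose best-known member, Sp1, binds GC boxes, and the sequence before the start of a gene was therefore set beside the links. The stretches below are the 250 bases upstream of annotated starts, from RefSeq on build GRCm38.p6, 5′ to 3′ on the strand of the gene, with each GC box (GGGCGG on either strand) in capitals. Their coordinates are on GRCm38 and those of the peaks on mm9, so no peak was placed in them. The first 3 belong to the linked genes with the highest scores that had an entry, Cacna2d3 on chr14:29721865-29722114 (minus strand, 80% G + C, 4 GC boxes), Cacna1b on chr2:24763153-24763402 (minus strand, 72.0%, 3 GC boxes) and Cacna2d1 on chr5:15934441-15934690 (plus strand, 82.4%, 6 GC boxes). The next one is from Cacna1i on chr15:80286988-80287237 (plus strand, 62.4%), which among linked genes with an entry had the highest score without a GC box.
Cacna2d3: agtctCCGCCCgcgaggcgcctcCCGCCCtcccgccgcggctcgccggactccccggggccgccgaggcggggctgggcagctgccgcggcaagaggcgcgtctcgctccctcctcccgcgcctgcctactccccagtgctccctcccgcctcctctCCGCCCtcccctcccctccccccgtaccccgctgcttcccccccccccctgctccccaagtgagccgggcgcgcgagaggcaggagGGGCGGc
Cacna1b: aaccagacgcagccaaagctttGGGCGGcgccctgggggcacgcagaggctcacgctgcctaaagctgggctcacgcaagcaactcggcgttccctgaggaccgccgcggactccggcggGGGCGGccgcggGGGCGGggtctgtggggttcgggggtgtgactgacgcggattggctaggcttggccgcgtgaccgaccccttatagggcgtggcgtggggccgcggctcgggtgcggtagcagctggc
Cacna2d1: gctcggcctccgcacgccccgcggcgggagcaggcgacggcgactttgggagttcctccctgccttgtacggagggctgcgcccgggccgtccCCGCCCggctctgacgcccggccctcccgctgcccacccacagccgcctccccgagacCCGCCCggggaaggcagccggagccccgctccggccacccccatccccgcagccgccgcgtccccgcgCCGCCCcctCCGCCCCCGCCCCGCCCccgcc
Cacna1i: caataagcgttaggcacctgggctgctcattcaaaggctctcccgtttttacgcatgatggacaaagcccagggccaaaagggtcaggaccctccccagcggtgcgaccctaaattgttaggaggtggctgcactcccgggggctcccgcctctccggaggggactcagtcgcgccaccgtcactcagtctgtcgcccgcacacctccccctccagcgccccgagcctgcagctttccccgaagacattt

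The pore genes of central neurons that had an entry and no linked peak, Scn1a and Scn2a, are shown for contrast, and none of their entries held a GC box. Scn1a has its entry on chr2:66440838-66441087 (minus strand, 46.8% G + C). Scn2a has one on chr2:65620519-65620768 (plus strand, 29.6%) and another on chr2:65668436-65668685 (plus strand, 53.2%).
Scn1a: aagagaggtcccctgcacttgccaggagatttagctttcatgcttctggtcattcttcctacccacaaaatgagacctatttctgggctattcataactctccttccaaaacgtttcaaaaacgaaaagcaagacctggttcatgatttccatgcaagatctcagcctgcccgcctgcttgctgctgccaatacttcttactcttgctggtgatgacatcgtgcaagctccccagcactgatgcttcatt
Scn2a, first entry: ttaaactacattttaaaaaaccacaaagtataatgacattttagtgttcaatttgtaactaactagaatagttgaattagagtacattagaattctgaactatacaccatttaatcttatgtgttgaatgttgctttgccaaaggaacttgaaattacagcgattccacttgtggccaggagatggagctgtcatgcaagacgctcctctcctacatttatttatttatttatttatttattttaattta
Scn2a, second entry: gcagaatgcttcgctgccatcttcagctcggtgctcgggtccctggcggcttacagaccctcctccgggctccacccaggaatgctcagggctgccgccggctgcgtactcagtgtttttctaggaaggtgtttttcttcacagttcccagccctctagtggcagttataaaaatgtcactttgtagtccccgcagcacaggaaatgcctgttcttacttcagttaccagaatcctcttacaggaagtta

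Over the channel genes with an entry, upstream sequence of linked genes was richer in G + C. Entries were found for 30 of the 40 genes, 20 linked and 10 without a linked peak. Taking the richest entry of each gene, the median G + C was 69.2% in linked genes (52.0 to 86.4%) and 48.8% in genes without a linked peak (38.4 to 62.4%), and the ranges overlapped. A GC box stood in 13 of the 20 linked genes (65.0%) and in 2 of the 10 others (20%), which were Cacna1f and Cacna1s. The same contrast held for coding genes at large, with a GC box in 63.7% of linked genes and 23.8% of genes without a linked peak, and medians of 62.0% and 49.2% G + C. The linked channel genes had 30 entries for 20 genes and the others 11 for 10, and more entries give more chances of a match. They also give more chances of a rich entry, so the G + C medians of the richest entry favour linked genes. Other entries of linked genes were poorer, down to 39.6% G + C in Cacna1d. Counted per entry, the box was in 43.3% of entries of linked channel genes and 18.2% of the others, against 57.3% and 22.8% for coding genes at large and 42.6% of all entries. Of 12 channel genes with an above-median peak and an entry, 7 (58.3%) held a GC box, as did 36.8% of their entries. Both shares were below those of all linked channel genes, while the median G + C of these 12 genes was higher (72.6%). A higher score thus did not go with a higher share of genes or entries holding a GC box among linked channel genes. These shares leave out the number of boxes. An entry with 6 boxes was found in Cacna1c, Cacna2d1 and Cacnb4, each with an above-median peak. Others with such a peak, among them Cacna1i and Scn8a, had no box. The homeodomain core TAATTA was in no entry of any channel gene and in 4.31% of all entries. A match is a run of letters and not a shown binding site.

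**Figure D2:**
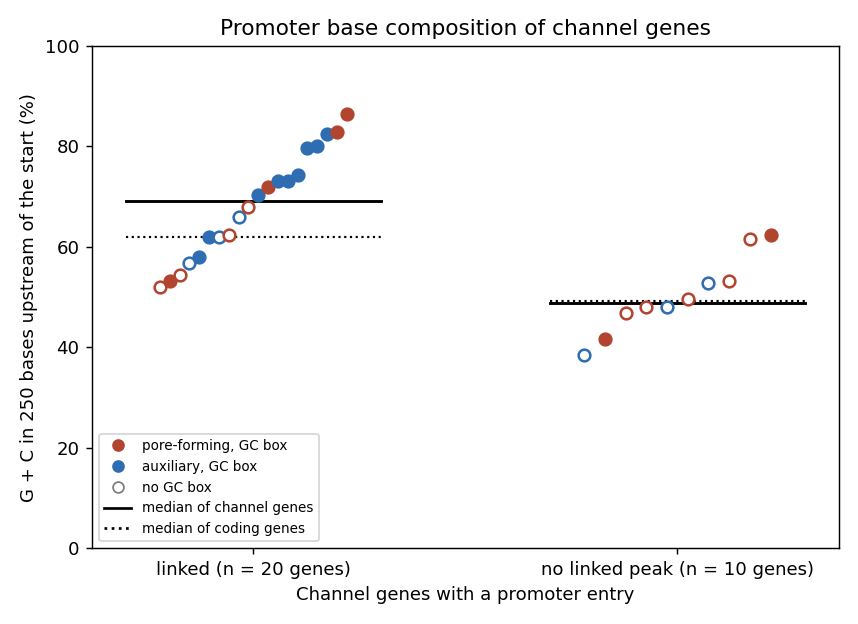
G + C content (percent) of the 250 bases upstream of the start, 1 point per channel gene (richest entry), in linked genes on the left and genes without a linked peak on the right; filled points hold a GC box. The solid lines mark medians of 69.2% and 48.8%, and the dotted lines the medians of linked and other coding genes (62.0% and 49.2%).

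Among the pore-forming genes, 4 of 10 sodium channel alpha genes had a linked peak (40.0%, against 55.4% of all coding genes), and counts this small do not set the class apart. Scn8a, which carries much of the current at the axon initial segment of central neurons, had 3 peaks with scores of 265.77, 235.12 and 102.79. Of these, 2 lay 150 bp apart on chromosome 15, from 100700637 to 100701207 and from 100701357 to 100702141 (mm9, as are all peak positions). The remaining peak, of score 235.12, lay 112 kb further along. Scn7a, a sodium-sensing channel of glia and other cells, had 1 peak of score 110.66, and Scn9a, known from sensory and olfactory sensory neurons, had 1 peak of score 84.47. The Scn9a peak stood above only 2.53% of all peaks, and both lay below the list median.

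No peak was linked to 6 alpha genes, among them the main sodium channels of forebrain neurons. These were Scn1a, a sodium channel of inhibitory neurons, Scn2a, the early axonal channel, Scn3a, a channel of embryonic and neonatal brain, Scn4a of skeletal muscle, and Scn10a and Scn11a of pain-sensing neurons. Scn1a, Scn2a and Scn3a stand in a cluster on chromosome 2 with Scn9a and Scn7a, and the 5 genes of that cluster had 2 peaks in all. Peaks there carried other names: in the order of the gene table, Scn3a has Cobll1 close by (627.26), and Galnt3 (632.33) lies between Scn2a and Scn1a. A peak in a cluster carries 1 name, so a missing name does not show that no peak lies near the gene. With the depth unknown, it does not show absence of binding either.

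The calcium channels of the presynaptic terminal were linked in 3 of 3 genes, against 55.4% of all coding genes. Counts this small do not set a class apart, here or in the classes below. Cacna1b, the pore of N-type channels, had the highest score of the 3, with 661.84 on chromosome 2 from 24617022 to 24619020, above 94.5% of all peaks, and another peak of score 251.19. Cacna1a, the pore of P/Q-type channels, had 3 peaks with scores of 386.69, 279.42 and 108.58. The first pair lay 214 bp apart on chromosome 8, from 86938016 to 86939038 and from 86939252 to 86940200. Cacna1e, the pore of R-type channels, had 2 peaks with scores of 103.5 and 100.01, both far below the median. The higher Cacna1e peak stood above only 14.1% of all peaks.

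T-type channels, which open near rest and drive burst firing, were the class in which each gene had an upper-quartile peak. The class holds only 3 genes, and 19.2% of all coding genes had such a peak. Cacna1h had 1 peak, which scored 766.39 (chromosome 17, 25569393 to 25571622). It was the widest of the family with 2229 bp and above 96.8% of all peaks. The highest peak of Cacna1g scored 601.07 (chromosome 11, 94333712 to 94335802), and its 3 further peaks had scores of 130.84, 128.02 and 83.19. Cacna1i had 4 peaks, with scores of 475.25, 364.41, 148.41 and 83.73, spread over 109 kb of chromosome 15.

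L-type channels, which couple depolarisation to gene expression and contraction, were linked in 2 of 4 genes, against 55.4% of all coding genes. Cacna1c, the main L-type pore of brain and heart, had peaks with scores of 286.04 and 99.82 on chromosome 6. Cacna1d, the L-type pore that opens at lower voltages, had 1 peak that scored 161.16 (chromosome 14, 31166805 to 31167396). Cacna1f of the retina and Cacna1s of skeletal muscle had no linked peak. The 4 nearest coding genes of Cacna1f in the table order had none either, whereas Kif21b next to Cacna1s had 3 with a highest score of 529.84.

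Grouped by the tissue in which a pore is best known, genes of central neurons were linked in 9 of 12 cases (75.0%), with 22 peaks. Pores known from muscle, heart, retina, sensory neurons or glia were linked in 3 of 8 cases (37.5%), with 6 peaks. Of all coding genes, 55.4% were linked, and with so few genes neither group stands clear of that share. Above-median peaks were linked to 7 of 12 central genes and to 1 of 8 of the others, against 35.4% of coding genes. The 3 central genes without a link were the sodium channels Scn1a, Scn2a and Scn3a.

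**Figure D3:**
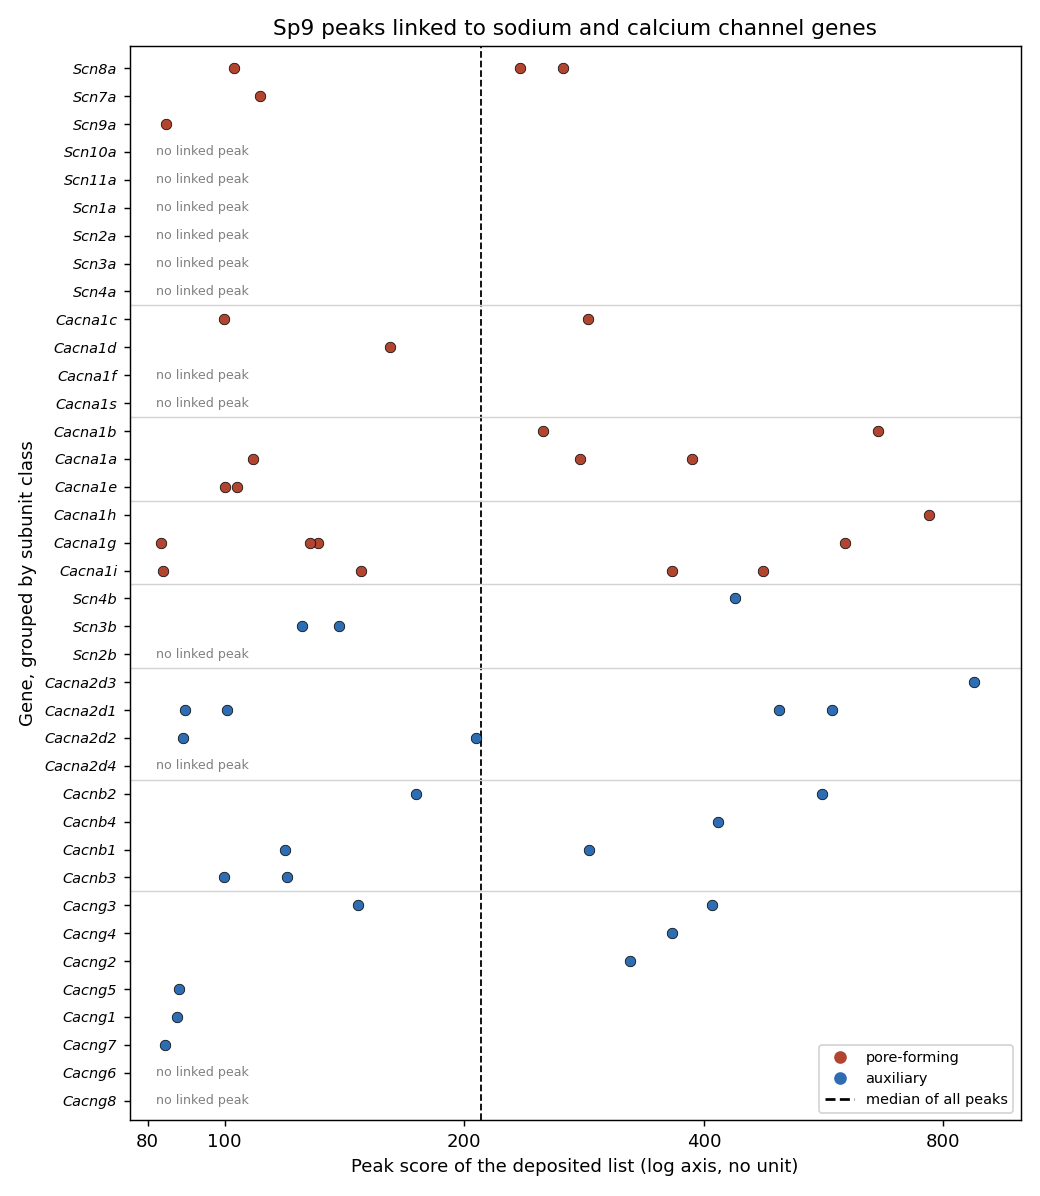
Deposited peak score (log axis, no unit) of 48 linked peaks, 1 point per peak and 1 line for each of 38 genes, with pore-forming classes above auxiliary classes. The dashed line marks the median of all peaks (210.06); 21 of the 48 peaks lie at or above it, and 12 genes had no linked peak.

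Among the auxiliary genes, the alpha2delta subunits held the highest score of the family. They are extracellular proteins that bring calcium channels to the membrane and to presynaptic sites. Cacna2d3 had 1 peak, which scored 875.16 (chromosome 14, 30534463 to 30536445), above 98.1% of all peaks. Cacna2d1, the target of gabapentin, had 4 peaks with scores of 579.08, 496.97, 100.8 and 89.2 over 236 kb of chromosome 5. Cacna2d2 had peaks with scores of 207.08 and 88.56, of which the first fell just short of the median. Cacna2d4, known from the retina, had none, although its neighbours in the gene table did, Cacna1c among them.

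The cytoplasmic beta subunits, which chaperone the calcium pore to the membrane, were linked in 4 of 4 genes, against 55.4% of all coding genes. Cacnb2 scored 562.35 on chromosome 2 from 14525295 to 14526898 and had another peak of score 173.77, 207 kb away. Cacnb4, the subunit mutated in the lethargic mouse, had 1 peak that scored 416.94 (chromosome 2, 52530832 to 52532241). Cacnb1 had peaks with scores of 286.94 and 119.09, and Cacnb3 peaks with scores of 119.62 and 99.73. The 2 peaks of Cacnb1 lay 1785 bp apart, and those of Cacnb3 1833 bp apart. Peaks named Rpl19 and Arl5c, 2 each, lay within 20000 bp of those of Cacnb1, the nearest being an Rpl19 peak of score 266.47 at 3494 bp.

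The highest peak of each of the 6 linked gamma genes scored either 323.34 or more, or 87.64 or less. Most gamma genes encode TARPs, proteins that traffic AMPA receptors rather than calcium channels. Of the 6 TARP genes, 5 were linked (83.3%, against 55.4% of all coding genes). Cacng3 had peaks with scores of 409.03 and 147.13, Cacng4 1 peak of 364.82 and Cacng2, the gene of stargazin, 1 peak of 323.34. Cacng5 (87.64) and Cacng7 (84.12) had 1 peak each near the lowest score of the list, and Cacng8 had none. Of the 2 gamma genes outside this group, Cacng1, the skeletal muscle subunit, had 1 peak of 87.18 and Cacng6 had none. No gamma score lay between 147.13 and 323.34.

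The sodium channel beta subunits, which are also adhesion molecules, were linked in 3 of 4 genes, against 55.4% of all coding genes. Scn4b had 1 peak that scored 437.79 (chromosome 9, 44946140 to 44947352). Scn3b had peaks with scores of 139.03 and 124.96, 14.3 kb apart. Scn2b, which adjoins Scn4b in the gene table, had none.

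The linked genes carried many peaks of low score. Of 28 linked genes, 15 (53.6%) had more than 1 peak, against 27.9% of all linked coding genes, and 4 genes (14.3%, against 4.46%) had 4. A raised share of genes with more than 1 peak was not particular to the family. More than 1 peak was linked to 44.2% of linked potassium channel genes and 58.1% of linked GABA and glutamate receptor genes. Over all 53 peaks the median score was 148.41, below the 210.06 of the whole list, and 11 peaks (20.8%) scored under 100, against 12% of all peaks. Peaks of potassium channel genes had a median score of 216.91 and those of the receptor genes 208.89, both near that of the whole list. The median of the highest peak per linked gene was 305.14, against 273.25 for all linked coding genes. The 25 further peaks of the family had a median of 119.09, against 135.45 for the further peaks of coding genes. The highest peaks of genes with several had a median of 386.69, against 336.89 for coding genes. Further peaks above the list median belonged to Cacna2d1, Cacna1i, Cacna1a, Cacna1b and Scn8a, 1 each.

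Peaks of 1 gene were often far apart. In 10 of the 15 genes with several peaks they spanned more than 50 kb, from 59.8 kb in Cacna1a to 236 kb in Cacna2d1. In 6 genes a pair of peaks lay within 5000 bp, with the smallest gaps in Scn8a (150 bp), Cacna2d1 (172 bp) and Cacna1a (214 bp). Peaks of another name stood between those of the same gene in 2 cases, 1 named Dcp1b (159.75) within the Cacna1c span and 1 named Gm13315 (265.31) within the Cacnb2 span. Whether far peaks lie inside the gene was not tested, because no mm9 annotation was used here.

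**Figure D4:**
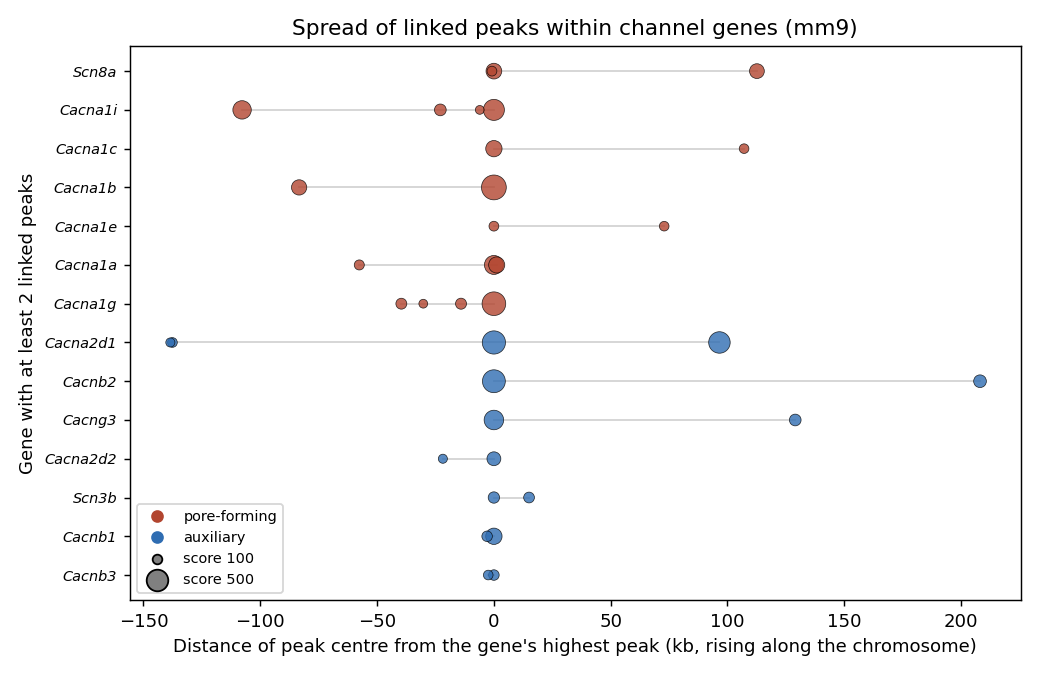
Distance (kb, mm9) of each linked peak from the highest peak of its gene, for 14 channel genes with several peaks, with the area of a point proportional to the peak score. Pore-forming genes stand above auxiliary genes; the longest span is 236 kb (Cacna2d1) and the shortest 3.01 kb (Cacnb3).

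Channel peaks seldom lay beside peaks of other genes. Only 4 of the 53 (7.55%) had a peak of another name within 20000 bp, against 23.0% of all peaks. Among them were 1 peak of Cacna1g and both of Cacnb1. For a peak of any name the shares were 43.4% and 40.8%. The median width was 908 bp, against 986 bp for the whole list.

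Other families of neuronal membrane proteins had higher shares of linked genes. Potassium channel genes (names that begin with Kcn) had 77 of 94 linked (81.9%), and GABA and glutamate receptor genes 43 of 49 (87.8%). Channel genes had 70.0%, and calcium channel genes alone 80.8%. The medians of the highest peak per linked gene lay close together, 305.14 for sodium and calcium channels, 310.86 for potassium channels and 337.26 for the receptors.

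Partners of these channels, in 6 lists by role, were linked in 59 of 68 genes (86.8%), against 55.4% of all coding genes. An above-median peak was linked in 41 of them (60.3%), against 35.4%. Genes that anchor or modulate sodium channels had 9 of 12 linked, with Cntn1, a contactin (1568.2), the intracellular fibroblast growth factor homologues Fgf12 (812.78, 7 peaks) and Fgf14 (737.12, 5 peaks), and the spectrin gene Sptbn4 (650.85) the highest. Ank2 and Ank3, the ankyrins that tether sodium channels, and Tnr had none. All 5 genes of the sodium leak channel complex were linked, with Fam155a at 492.62, Fam155b (Tmem28 in the gene table) at 384.97, Unc80 at 325.72 and the pore gene Nalcn at 286.85.

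Calcium channel modulators were linked in 14 of 14 genes, among them Cabp1 (641.04), Stac2 (511.28) and the calmodulin gene Calm3 (355.44). Active zone proteins that hold calcium channels at release sites had 9 of 11 linked, led by Rims2 (765.21), Rims1 (481.75), Unc13a (323.63) and Bsn (315.44), while the release proteins Stx1a and Snap25 had none. Genes of calcium stores and store-operated entry had 10 of 12 linked, led by the pump gene Atp2a2 (666.97), the IP3 receptor gene Itpr1 (610.76), the ryanodine receptor gene Ryr2 (442.13) and Orai1 (397.28). Genes that carry calcium signals to the nucleus had 12 of 14 linked, led by the calcineurin gene Ppp3ca (754.68), Creb1 (618.75), Nfatc1 (582.55) and Mef2a (499.3). For peaks of any score the share in each of the 6 lists was above the 70.0% of the channel genes and the 55.4% of all coding genes. For above-median peaks the active zone list had 36.4%, below the 45.0% of the channel genes and near the 35.4% of all coding genes. In the upper quartile the active zone list (18.2%) and the calcium channel modulators (28.6%) lay below the 32.5% of the channel genes. All coding genes had 19.2% there, near the share of the active zone list.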

How the data were processed

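The deposited file is 1 list of peaks shared between the 2 Sp9 immunoprecipitation libraries. The submitters' processing notes name Bowtie2 2.2.4 (a read aligner), MACS 1.4.2 (a peak caller) and build mm9, without roles or settings. The deposited peak score is 1 number per peak, while its formula, the annotation used and how a peak came to count as shared were not stated. Whether starts count from 0 or 1 is not stated. The score was used only within the list. Depth is unknown, so no interval is given.

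Gene names were matched to RefSeq (GRCm38.p6) by symbol, then by a synonym of only 1 gene. All 53 channel peaks matched by symbol and lay on the chromosome of their gene. No coordinate of that table was set against a peak. Upstream sequences came from the RefSeq promoter table; matches were counted on both strands, overlaps included.

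Computations used Python 3.11.15 and pandas 2.3.3 and were tested on simulated data. The members and lists were chosen with earlier results of these data known. Channel genes were named, with up to 4 partners per list by highest score and genes of peaks within 20000 bp of a member; partners without a peak and genes next to unlinked members or between their peaks were named after their values were seen. Alternatives were score thresholds, merging and the highest peak per gene. Some genes that this rule would name are counted but not reported here.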

Additional observations from a re-analysis of the deposited data

How the results depend on the processing

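With above-median peaks only, linked genes numbered 18 in the family against 28 as deposited, 8 against 12 for pore-forming genes and 10 against 16 for auxiliary genes, and peaks per gene were 0.6 and 0.55. With the upper quartile only, the numbers were 13, 6 and 7. The lead of auxiliary over pore-forming genes in linked genes narrowed to 1 gene there. Merging peaks of a gene within 5000 bp left 47 peaks, with 1.25 per pore-forming and 1.1 per auxiliary gene. The median score was 142.71 for pore-forming and 173.77 for auxiliary peaks, but with the highest peak of each gene it was 336.37 and 305.14, so the order of these medians turned. Fewer peaks enter by construction in each case. Leaving out a library was not run, because the list holds no value per library. No paired analysis was possible because the list names no library and nothing was tested. The unknown depth limits each statement that a gene has no peak.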
